A study of Mus musculus with 12 samples.

Results

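Transcripts of 9 fatty acid desaturases and elongases (Scd1, Scd2, Fads1, Fads2, Elovl1, Elovl2, Elovl3, Elovl5 and Elovl6) were followed in the livers of 12 C57BL/6 mice. The mice were 8 weeks old when feeding began and were fed for 8 weeks, and the labels describe the livers as taken in the fasting state. The MCD+HF+Met group received a high fat (HF) diet deficient in methionine and choline (MCD) with metformin mixed in at 0.1%, the MCD+HF group the same diet without the drug, and the NC group normal chow. Each group held 4 mice with 1 array per mouse, and both deficient groups shared the high fat feed, so the MCD+HF and NC groups differed in the lack of methionine and choline and in fat content together. The diet is a mouse model of steatohepatitis, an inflamed and scarring fatty liver. Expression was read on Affymetrix arrays that cover the mouse genome, on which a transcript is measured by 1 or more probe sets, each a group of short probes summarised as 1 signal intensity. The 9 genes were named by 21 of the 45101 probe sets, and they are 9 of the 18193 genes named in all. For each gene the probe set with the highest mean signal over the 12 arrays was used, and one ending in _x_at, whose probes can bind related transcripts, was used only where there was no other. None of the 9 had a mean signal under 20, so none was dim.

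Desaturases place double bonds in fatty acids and elongases lengthen them, both in the membrane of the endoplasmic reticulum and both on fatty acids activated with coenzyme A. In liver the stearoyl-CoA desaturases make monounsaturated fatty acids such as oleate, which are built into triglycerides, phospholipids and cholesterol esters, while FADS2 and FADS1 with the elongases ELOVL5 and ELOVL2 turn the essential fatty acids of the diet into long polyunsaturated ones such as arachidonate and docosahexaenoate. The elongases ELOVL6, ELOVL3 and ELOVL1 act on saturated and monounsaturated chains of increasing length.

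Signals had been scaled by the authors so that the mean of each array without its extreme 2% in each tail was 100, while the plain mean was 167 to 177 in MCD+HF+Met, 163 to 172 in MCD+HF and 193 to 203 in NC arrays. Changes are given as differences of log2(signal + 10), which understate the change of dim probe sets, with the standard error (SE) of limma's fit of the 3 groups. A gene was called at a Benjamini-Hochberg adjusted p under 0.05 over the 22832 probe sets whose signal averaged 20 or more. Each p-value from limma uses a spread among mice that is pooled over the 3 groups and moderated across probe sets. Precision is limited by how many arrays there were. Arrays of the same group correlated with medians of 0.975 (MCD+HF+Met), 0.981 (MCD+HF) and 0.976 (NC). The livers also differed in the summed signals of cell type markers. Hepatocyte markers (7 genes) summed to between 44057 and 55881 in MCD+HF mice and between 87126 and 103647 in NC mice, and 6 of the 7 fell. Among all genes limma called 20.8% lower and 27.4% higher in this comparison. The brightest probe set of an array also reached less in MCD+HF mice (9467 to 11830) than in NC mice (19413 to 23473). How far the hepatocyte sums depend on the scaling of bright probe sets was not tested. Macrophage markers (12 genes) summed to between 7370 and 11925 in MCD+HF mice and between 3395 and 4328 in NC mice, with 9 of 11 tested genes higher and 1 lower, and Itgam, Gpnmb and Trem2 had mean signals under 20 in NC. Stellate cell markers (10 genes) summed to between 7753 and 9774 in MCD+HF mice and between 2187 and 2973 in NC mice, 9 of them being higher, and Col1a1 had a mean under 20 in NC. The 4 cholangiocyte markers measured, all with means under 20 in NC, were higher in MCD+HF, 4 of the 7 endothelial markers changed (1 higher, 3 lower), and all 6 lymphocyte markers measured were below the filter, as were Adipoq and Lep of adipocytes. Fabp4, the adipocyte marker that was tested and that macrophages also express, averaged 315 ± 116 in MCD+HF+Met, 764 ± 77.0 in MCD+HF and 225 ± 137 in NC mice (SD, n = 4 each), being higher in MCD+HF than in NC (log2 change 1.87, adjusted p = 7.1e-05) and lower with metformin (-1.31, adjusted p = 0.0206). The 3′ to 5′ signal ratio of the beta-actin control, a sign of RNA integrity, was 1.62 to 1.86 in MCD+HF+Met, 1.46 to 1.62 in MCD+HF and 1.54 to 1.88 in NC mice, so that the MCD+HF+Met mice lay above the MCD+HF mice, and that of Gapdh averaged 0.757 ± 0.045, 0.699 ± 0.012 and 0.710 ± 0.012 in the same order (SD, n = 4 each). With metformin the hepatocyte sum lay between 48227 and 61219, the stellate sum between 5540 and 8217 and the macrophage sum between 3610 and 5504, 6 of 11 macrophage genes and 3 of 10 stellate genes being lower than in MCD+HF, while 0 of 7 hepatocyte genes were called by limma (3 at an unadjusted p under 0.05, 2 by the methods' t-test). Among all genes limma called 2.34% lower in this comparison, and 3.97% in either direction, both at an adjusted p under 0.05. The share at an unadjusted p was not counted. After adjustment the methods' t-test called 0 of the 11 macrophage and 0 of the 10 stellate genes. In whole liver, fewer cells of a type and less RNA per cell cannot be told apart, and the part of these markers and of the control ratios in the results below was not tested.

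The MCD+HF diet moved 8 of the 9 transcripts. The directions split among the stearoyl-CoA desaturases and among the elongases. Scd2, Fads2, Fads1, Elovl5 and Elovl1 were higher than in NC livers, and Scd1, Elovl3 and Elovl2 were lower, while Elovl6 was not called. Among all 11099 genes tested, limma called 48.2%, with 27.4% higher and 20.8% lower, so that 5 of 9 higher and 3 of 9 lower are to be read against that background. In all 8 called members the 4 MCD+HF mice did not overlap with the 4 NC mice, which was so for 45.1% of all genes. The median log2 change of the 9 was 0.43, and that of all genes was 0.05.

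**Figure D1:**
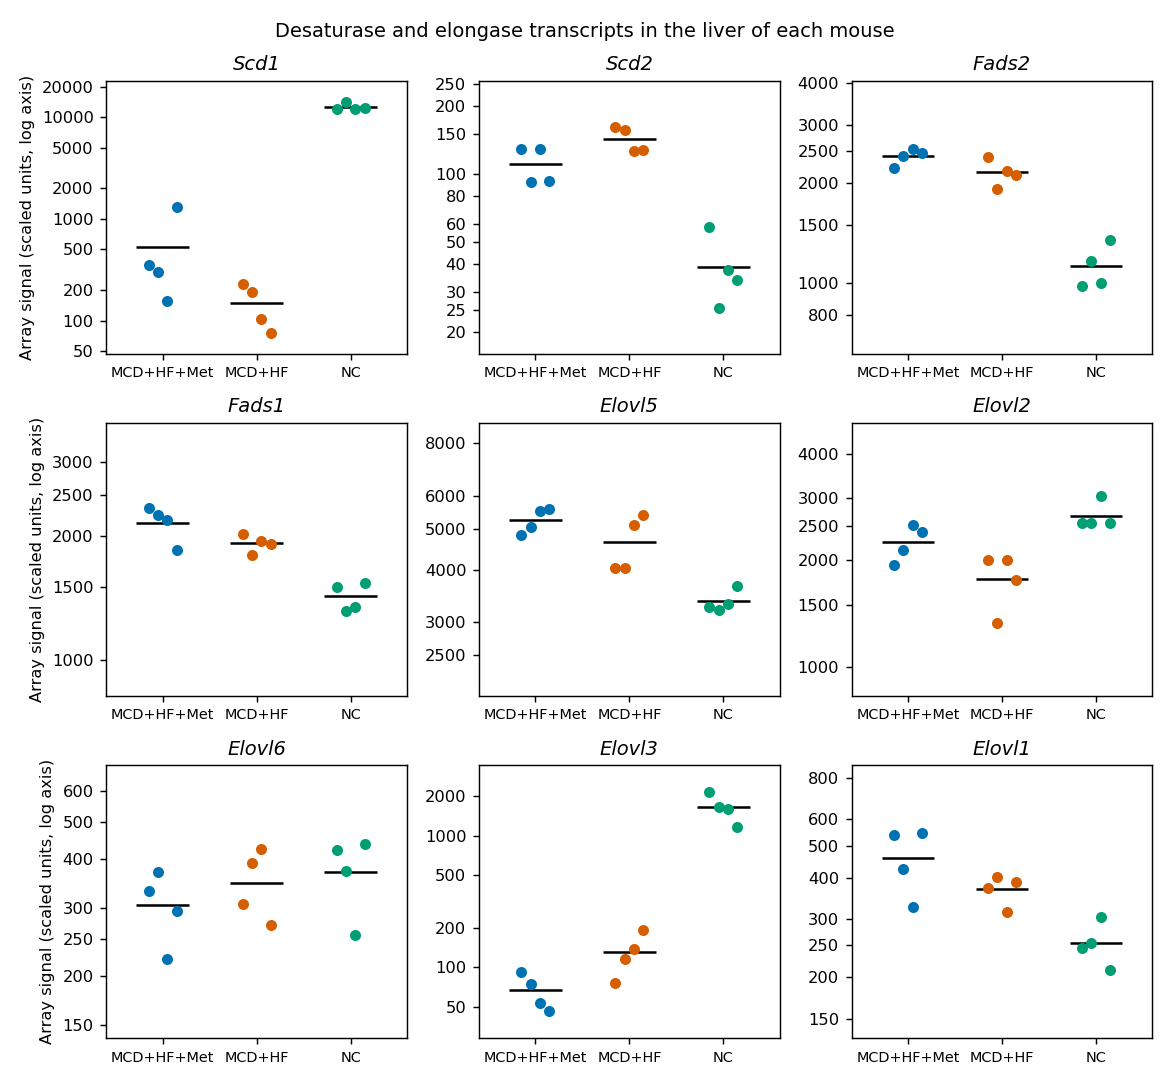
Array signal (log axis, scaled units) of the 9 transcripts by diet, 1 point per mouse and a black line at the mean of the 4 mice. Scd1 and Elovl3 of all MCD+HF+Met and MCD+HF mice lay far below every NC mouse, with Scd1 at most at 1323.9 against at least 11931.4, whereas Scd2, Fads2, Fads1, Elovl5 and Elovl1 lay above NC.

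Among the stearoyl-CoA desaturases, Scd1 encodes the main enzyme of adult mouse liver. Its signals were 228.7, 189.5, 104.1 and 75.7 in the MCD+HF mice, against 11960.4, 14199.8, 11931.4 and 12471.7 in the NC mice. Every NC mouse was thus far above every MCD+HF mouse, and the mean in NC (12641 ± 1069, SD, n = 4) was 84.6 times that in MCD+HF (149.5 ± 71.6, SD, n = 4). The log2 change was -6.43 (95% interval -7.39 to -5.46, SE 0.46, adjusted p = 2.8e-08 from limma). A second probe set of Scd1 gave 25.3, 26.3, 18.6 and 13.4 in MCD+HF mice and 1338.8, 1785.1, 980.0 and 1648.0 in NC mice, a log2 change of -5.54 (adjusted p = 7.2e-09). The sister gene Scd2, which encodes a stearoyl-CoA desaturase that is abundant in brain and in young animals, moved the other way. Scd2 had signals of 161.4, 156.3, 126.7 and 127.1 in MCD+HF mice, against 58.5, 25.6, 37.5 and 33.8 in NC mice. All MCD+HF mice were above all NC mice, the ratio of the means was 3.68, and the log2 change was 1.68 (SE 0.18, adjusted p = 2.5e-06). Its other tested probe set, with a mean signal of 33.8, was also higher but its groups overlapped (log2 change 0.76, adjusted p = 0.0429), and the third had a mean of 10.2, below the filter.

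The front-end desaturases, which insert a double bond between an existing one and the carboxyl end, were both higher. Fads2 encodes the enzyme of the first step of polyunsaturated fatty acid synthesis. Its signals were 2397.4, 1923.3, 2172.1 and 2123.3 in MCD+HF mice, against 979.0, 1164.7, 995.8 and 1343.5 in NC mice. No MCD+HF mouse reached as low as an NC mouse, and the mean was 1.92 times that of NC (log2 change 0.94, SE 0.11, adjusted p = 3.2e-06). The other Fads2 probe sets gave 1.10 and 0.79 on the log2 scale. Fads1, the desaturase that forms arachidonate later in the same route, was higher as well. It had signals of 2018.6, 1795.9, 1936.2 and 1911.0 in MCD+HF mice, against 1503.1, 1315.4, 1345.4 and 1540.9 in NC mice. Here too the groups were separate, with a log2 change of 0.43 (SE 0.09, adjusted p = 0.00134) that was 0.64 after quantile normalization between arrays. A second Fads1 probe set with a mean signal of 89.1 gave -0.016 (adjusted p = 0.962), and the cause of this disagreement was not tested.

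The elongases of polyunsaturated chains went in opposite directions. Elovl5, which lengthens the products of FADS2, had signals of 4034.3, 4034.5, 5110.4 and 5405.4 in MCD+HF mice, against 3265.1, 3205.5, 3310.4 and 3659.6 in NC mice. The lowest MCD+HF mice lay above the highest NC mouse, and the log2 change was 0.46 (SE 0.10, adjusted p = 0.0019), or 0.88 after quantile normalization. Elovl2, the elongase needed for docosahexaenoate, had signals of 2010.3, 1327.2, 1998.9 and 1763.3 in MCD+HF mice, against 2546.5, 2557.0, 3047.5 and 2551.2 in NC mice. All MCD+HF mice were below all NC mice, and the log2 change was -0.60 (SE 0.13, adjusted p = 0.0012). After quantile normalization the change of Elovl2 was -0.30 and was no longer called (adjusted p = 0.0654). Elovl2 and Elovl3 were each read by a single probe set.

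Promoter windows are printed for the members whose diet changes went together or apart in the polyunsaturated route (Fads2, Elovl5, Elovl2) and for Elovl1, to show what the sequence at the start of these genes holds. RefSeq windows of the GRCm38.p6 assembly, from 250 bases before to 50 bases after the start, were found for 5 of the 9 genes. Each was searched on both strands for the NF-Y box CCAAT, the E-box CACGTG, the Sp1 GC box GGGCGG, the sterol regulatory element of the LDL receptor gene and the half-site AGGTCA repeated with 1 base (DR1) or 4 bases (DR4) between the copies. Matches are in capitals, and a match on the opposite strand reads ATTGG or CCGCCC.
Fads2 (chr19:10101454-10101753, minus strand): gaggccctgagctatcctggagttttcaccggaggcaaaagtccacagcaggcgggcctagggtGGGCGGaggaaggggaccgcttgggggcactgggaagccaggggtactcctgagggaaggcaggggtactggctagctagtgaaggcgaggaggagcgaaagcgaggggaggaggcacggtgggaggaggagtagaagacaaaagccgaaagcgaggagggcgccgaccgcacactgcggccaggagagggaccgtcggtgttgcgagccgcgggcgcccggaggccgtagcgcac
Elovl5 (chr9:77917115-77917414, plus strand): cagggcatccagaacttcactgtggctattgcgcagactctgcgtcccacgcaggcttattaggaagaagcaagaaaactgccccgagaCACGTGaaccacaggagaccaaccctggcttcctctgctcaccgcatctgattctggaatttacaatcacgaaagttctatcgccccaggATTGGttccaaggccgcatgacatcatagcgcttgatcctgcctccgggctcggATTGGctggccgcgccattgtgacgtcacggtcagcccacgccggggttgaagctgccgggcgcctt
Elovl2 (chr13:41220354-41220653, minus strand): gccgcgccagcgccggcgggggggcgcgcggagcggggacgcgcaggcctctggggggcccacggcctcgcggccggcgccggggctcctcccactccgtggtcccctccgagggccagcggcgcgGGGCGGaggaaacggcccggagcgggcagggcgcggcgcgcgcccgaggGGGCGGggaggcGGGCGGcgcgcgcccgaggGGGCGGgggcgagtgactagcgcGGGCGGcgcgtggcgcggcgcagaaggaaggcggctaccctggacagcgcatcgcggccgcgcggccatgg
Elovl1 (chr4:118427843-118428142, plus strand): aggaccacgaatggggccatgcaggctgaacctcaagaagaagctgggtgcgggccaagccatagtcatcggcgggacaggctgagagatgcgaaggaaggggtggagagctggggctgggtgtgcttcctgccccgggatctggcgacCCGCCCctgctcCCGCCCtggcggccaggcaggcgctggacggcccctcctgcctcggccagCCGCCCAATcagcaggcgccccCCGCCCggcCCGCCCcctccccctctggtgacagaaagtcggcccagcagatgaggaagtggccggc
The Fads2 window held 1 GC box, 186 bases before the start. Elovl5 held an E-box at 161 bases and NF-Y boxes on the opposite strand at 71 and 17 bases before the start. The Elovl2 window, of a gene that was lower in MCD+HF, held 5 GC boxes between 124 and 21 bases before the start. Elovl1 held 5 GC boxes on the opposite strand between 101 and 8 bases before the start, and its NF-Y box at 35 bases shared 2 bases with one of them. The single window of Elovl6 and a second window of Elovl2 held none of the 6 motifs, and a second window of Elovl1 held 2 GC boxes. Among all 32851 windows, 37.4% held the NF-Y box, 35.7% the GC box, 7.15% the E-box, 0.0913% the sterol regulatory element, 0.0396% the DR1 and 0.0152% the DR4. A match is a description of the letters only.

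Of the elongases of saturated and monounsaturated chains, Elovl6 lengthens palmitate to stearate. It had signals of 306.5, 390.7, 426.5 and 271.0 in MCD+HF mice, against 422.9, 372.7, 255.0 and 437.2 in NC mice. The groups overlapped throughout, and the log2 change was -0.08 with an interval of -0.48 to 0.31 (adjusted p = 0.746). Its other probe sets gave -0.11 and -0.33, neither called. Elovl3, which makes longer saturated and monounsaturated chains and is known from skin and brown fat as well as liver, had signals of 75.5, 115.0, 138.9 and 193.1 in MCD+HF mice, against 2131.3, 1647.9, 1585.0 and 1170.7 in NC mice. Every MCD+HF mouse was far below every NC mouse. The NC mean (1634 ± 394, SD, n = 4) was 12.5 times the MCD+HF mean (130.6 ± 49.2, SD, n = 4), and the log2 change was -3.58 (SE 0.24, adjusted p = 1.8e-08). Elovl1, which forms very long saturated chains for sphingolipids in most tissues, had signals of 371.7, 403.3, 315.5 and 389.0 in MCD+HF mice, against 245.5, 254.6, 303.9 and 210.3 in NC mice. Its groups did not overlap, although MCD+HF replicate 3 and NC replicate 3 came close, and the log2 change was 0.53 (SE 0.15, adjusted p = 0.011). Of 3 further Elovl1 probe sets, all ending in _x_at, a pair gave 1.07 each and the third, with a mean of 26.2, gave 0.46 and was not called (adjusted p = 0.164).

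**Figure D2:**
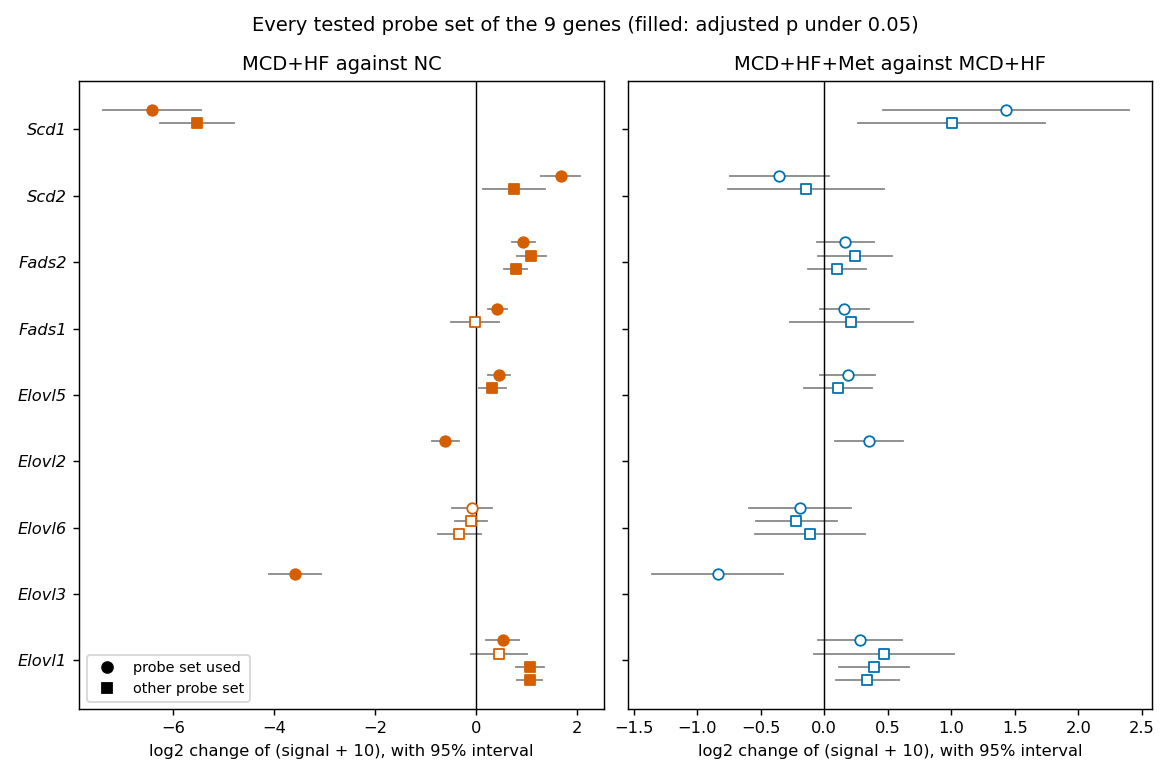
Log2 change of every tested probe set of the 9 genes, with its 95% interval, for MCD+HF against NC (left) and MCD+HF+Met against MCD+HF (right); circles are the probe sets used, squares the others, and filled symbols have an adjusted p under 0.05. Probe sets of Scd1 agreed in the diet comparison at -6.43 and -5.54, those of Fads1 did not at 0.43 and -0.016, and no symbol is filled on the right.

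Added to the deficient diet, metformin gave no called change in any member. Limma called 0 of the 9, where 3.97% of all genes were called (1.63% higher, 2.34% lower). At an unadjusted p under 0.05 limma gave 3 (Scd1, Elovl2 and Elovl3). The methods' t-test gave 1 (Elovl3) at its unadjusted threshold and 0 after adjustment. How many of all genes pass at an unadjusted p was not counted, so these unadjusted counts have no background here. The median log2 change of the 9 was 0.16, and that of all genes was 0.01. With 4 mice a group this does not show that the transcripts were alike. The intervals below give sizes that remain possible if the 3 groups share 1 spread, as limma's fit takes them to.

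Scd1 had the largest difference of the 9. Its signals were 352.6, 297.3, 154.5 and 1323.9 in MCD+HF+Met mice, against the 228.7, 189.5, 104.1 and 75.7 of the MCD+HF mice. One treated mouse, replicate 4, stood far above the rest, and replicate 3 lay within the MCD+HF range, so the groups overlapped. The mean of MCD+HF+Met mice (532 ± 534, SD, n = 4) was 3.56 times that of MCD+HF mice, and the log2 change was 1.43 (95% interval 0.46 to 2.40, adjusted p = 0.0966). Without replicate 4 of MCD+HF+Met it was 0.84 (adjusted p = 0.15), and without replicate 3 it was 1.85 and passed the threshold (adjusted p = 0.0307). On the second Scd1 probe set the signals were 36.2, 36.6, 29.2 and 154.9 in MCD+HF+Met mice, against the 25.3, 26.3, 18.6 and 13.4 of MCD+HF mice. There the groups did not overlap, though the change of 1.01 was not called either (adjusted p = 0.122). Elovl3 differed the other way, with 92.7, 74.8, 53.9 and 46.6 in MCD+HF+Met mice, against the 75.5, 115.0, 138.9 and 193.1 of MCD+HF mice. Only MCD+HF replicate 1 fell within the range of the treated mice. The log2 change of Elovl3 was -0.84 (95% interval -1.36 to -0.32, adjusted p = 0.0704), and without MCD+HF replicate 1 it was -1.06 with an adjusted p of 0.025. Over the alternatives run, the adjusted p lay between 0.0307 and 0.363 for Scd1 and between 0.025 and 0.261 for Elovl3.

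In the polyunsaturated route, Elovl2 had signals of 1934.6, 2144.8, 2519.8 and 2404.1 in MCD+HF+Met mice, overlapping the MCD+HF mice at the lower end, and its change of 0.35 (95% interval 0.08 to 0.62) was not called (adjusted p = 0.14). Fads2 signals were 2214.6, 2419.2, 2541.9 and 2471.6 with metformin, a difference from MCD+HF of 0.16 (interval -0.06 to 0.39, adjusted p = 0.423). Fads1 signals were 2330.9, 2235.3, 2174.0 and 1842.1, also a difference of 0.16 (interval -0.03 to 0.35, adjusted p = 0.363). Treated and untreated mice overlapped for both desaturases. Elovl5 gave 4825.5, 5057.9, 5525.0 and 5575.9 in MCD+HF+Met mice, a change of 0.19 (interval -0.03 to 0.40, adjusted p = 0.342) with overlap of the groups. Scd2 gave 128.6, 91.7, 128.6 and 92.8, a change of -0.35 (interval -0.74 to 0.04, adjusted p = 0.31), with MCD+HF+Met replicates 1 and 3 inside the MCD+HF range. Elovl1 gave 539.8, 424.1, 326.9 and 546.1, a change of 0.28 (interval -0.05 to 0.61, adjusted p = 0.341), replicate 3 being the one treated mouse within the MCD+HF range. On its brighter pair of _x_at probe sets the MCD+HF+Met and MCD+HF mice did not overlap, with changes of 0.39 (adjusted p = 0.104) and 0.34 (adjusted p = 0.123), neither of them called. Groups that did not overlap were seen in 12.6% of all genes in this comparison. Elovl6 gave 331.2, 370.4, 221.8 and 293.9, a change of -0.19 (interval -0.59 to 0.21, adjusted p = 0.626).

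**Figure D3:**
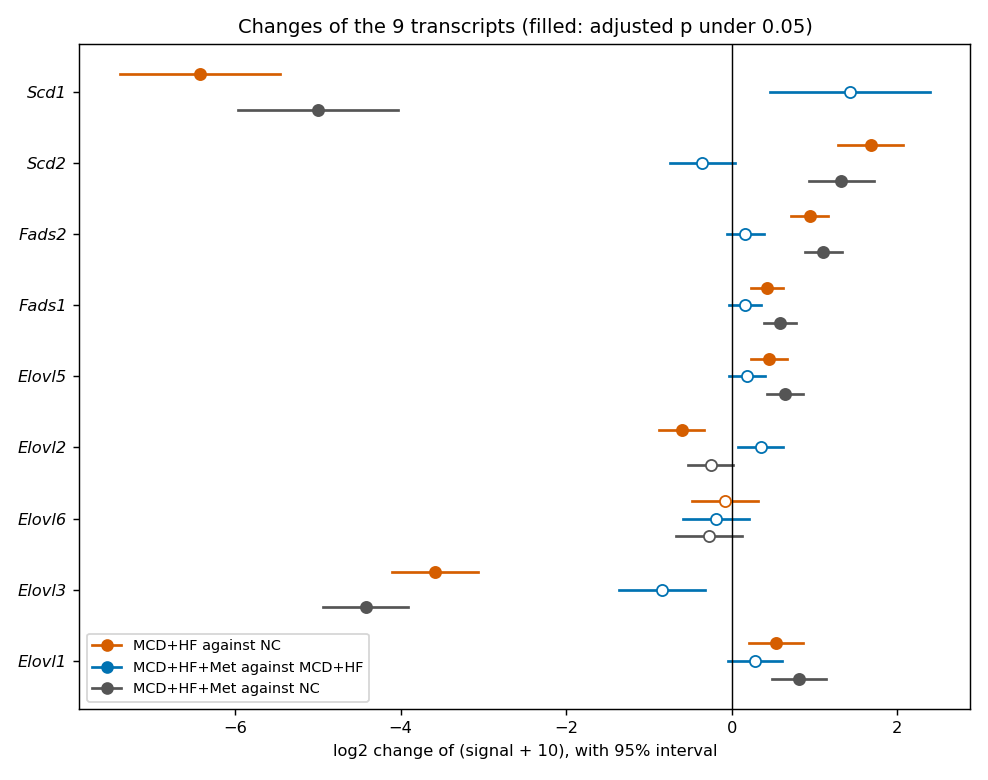
Log2 change of (signal + 10) with its 95% interval for the 9 transcripts in each comparison, filled where the adjusted p is under 0.05. All symbols of MCD+HF+Met against MCD+HF (blue) are open, and Scd1 stands at 1.43 there, at -6.43 in MCD+HF against NC (orange) and at -5.00 in MCD+HF+Met against NC (grey).

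The livers of MCD+HF+Met mice also differed from NC, a comparison that shares its NC arrays with the diet comparison and its treated arrays with the metformin comparison. Of the 9 members, 5 were higher, 2 lower and 2 not called, where 44.2% of all genes were called, 25.6% higher and 18.6% lower. Scd1 was still far below normal chow, its NC mean being 23.8 times the MCD+HF+Met mean (log2 change -5.00, adjusted p = 5.1e-07), and the NC mean of Elovl3 was 24.4 times that of MCD+HF+Met (log2 change -4.42, adjusted p = 2.7e-09). The higher members were Scd2 at 1.33, Fads2 at 1.11, Elovl1 at 0.81, Elovl5 at 0.64 and Fads1 at 0.58 on the log2 scale, with adjusted p-values of 6.1e-04 or less. On other probe sets Scd2 (0.62, adjusted p = 0.102) and Fads1 (0.20, adjusted p = 0.52) were not called. After quantile normalization Elovl5 was at 0.97. Elovl2 stood at -0.25 (95% interval -0.52 to 0.02, adjusted p = 0.13) although all 4 treated mice lay below all NC mice, and groups without overlap were seen for 39.7% of all genes in this comparison. After quantile normalization this change was 0.021, of the opposite sign. Elovl6 had a change of -0.28 (interval -0.67 to 0.12, adjusted p = 0.262).

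Ordered by level, the 3 groups ran in 4 different orders among the 9 genes. For Scd1 the order of the means was NC, then MCD+HF+Met, then MCD+HF, and only NC stood beyond the spread of its neighbour. For Elovl3 it was NC, then MCD+HF, then MCD+HF+Met, with the diet groups not differing beyond the test. For Fads2, Fads1, Elovl5 and Elovl1 the order was MCD+HF+Met, MCD+HF and NC, and among neighbours only MCD+HF and NC differed by a called amount. For Scd2 it was MCD+HF, MCD+HF+Met and NC, and among neighbours only MCD+HF+Met and NC differed by a called amount. For Elovl2 it was NC, MCD+HF+Met and MCD+HF with neither neighbouring pair called, and for Elovl6 NC, MCD+HF and MCD+HF+Met with no pair called.

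The genes most like each member over the 12 arrays were found by Pearson r of log2(signal + 10) among 8464 genes, and the r of deviations from the group means is given second. These arrays share their groups, so the group pattern enters every r, and the genes were picked as the highest of many. Closest to Scd1 were C8a, a chain of terminal complement (0.989, 0.925), Serping1, the C1 inhibitor (0.980, 0.643), and Mapkap1 (0.980, 0.787). Both values for Scd1 include MCD+HF+Met replicate 4, which stood far above its group. Closest to Scd2 were the collagen genes Col4a5 (0.991, 0.943) and Col5a2 (0.982, 0.833) and the kinase gene Csnk1e (0.982, 0.827). In MCD+HF against NC, 9 of 10 stellate, 9 of 11 macrophage (1 lower) and 4 of 4 cholangiocyte markers were also higher. The part of any cell type in the signal of Scd2 was not tested. For Fads2 they were Fabp2, a fatty acid binding protein (0.990, 0.872), Mrpl52 and Serinc2, for Fads1 Dync1h1 (0.965, 0.753), Plpp6 and Gtpbp2, and for Elovl5 Comtd1 (0.967, 0.855), Stub1 and Eci2. Elovl2 was closest to Atp5pb (0.928, 0.803), Sdc4 and Fth1. Elovl3 was closest to the complement gene C2 (0.991, 0.761), then Ugt3a2 and Acsm1, and Elovl1 to Eif4e, Ssr1 and Mcfd2 (0.967 for each). Elovl6, which no comparison called, reached at most 0.841 (Cyth1), followed by Qrich1 and Zxdc.

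Genes of connected steps were counted on the MCD+HF diet against the same background, 48.2% of all genes called (27.4% higher, 20.8% lower). Among other desaturases and elongases, 3 of 5 tested genes were higher and 1 lower (median log2 change 0.26). Elovl7, an elongase of long saturated and polyunsaturated chains, had a signal of 69.0 ± 19.0 in MCD+HF mice and 16.3 ± 5.38 in NC mice (SD, n = 4 each; log2 change 1.58, adjusted p = 9.1e-06), and Fads3, the neighbour of Fads1 and Fads2, had 60.3 ± 10.5 and 18.4 ± 2.38 (1.30, adjusted p = 3.1e-06). Scd3 and Elovl4 were dim and Scd4 was not analysed here. Of the 6 partner enzymes that complete each elongation cycle, 2 were higher and 2 lower (median -0.05, and 2 called in all without MCD+HF replicate 1 or without replicate 2). Hacd4, a dehydratase of the cycle, was higher at 129.9 ± 14.0 in MCD+HF mice and 38.5 ± 8.83 in NC mice (1.54, adjusted p = 2.0e-06), and its sister Hacd1 was lower (-0.46, adjusted p = 5.7e-04). The electron supply of the desaturases had 1 of 4 genes higher and 2 lower (median -0.51). Cyb5a, the cytochrome b5 that passes electrons to the desaturases, was at 6601 ± 267 in MCD+HF mice and 10971 ± 680 in NC mice (-0.73, adjusted p = 7.1e-07), but at 0.040 and not called after quantile normalization. Its reductase gene Cyb5r3 was lower by both scalings (-0.75, and -0.48 after quantile normalization), and Cyb5r1 was higher (0.57, adjusted p = 0.00825).

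Of the transcription factors known to act on these genes and the enzymes of fatty acid synthesis that supply them, 5 of 12 were lower and 1 higher (median -0.31). Among all genes 20.8% were called lower and 27.4% higher, or 48.2% in either direction. Srebf1, which encodes SREBP-1c, the lipogenic factor known to drive Scd1 and Elovl6, had a signal of 384 ± 100.2 in MCD+HF mice and 898 ± 178 in NC mice (-1.23, adjusted p = 1.2e-04). Mlxipl, encoding the carbohydrate sensor ChREBP, was lower (-1.12, adjusted p = 1.1e-05), as was Thrsp, a nuclear protein of lipogenesis (-2.03, adjusted p = 0.00224), while Acacb, the mitochondrial acetyl-CoA carboxylase, was higher (0.85, adjusted p = 0.00639). Of 9 measured genes of PPARalpha, a fatty acid sensor known to act on the polyunsaturated desaturases, and its targets, 7 were higher and 1 lower (median 0.71). The lower one was Ppara itself, at 1904 ± 168 in MCD+HF mice and 2800.4 ± 532 in NC mice (SD, n = 4 each; -0.54, adjusted p = 0.00761). Pdk4, a brake on pyruvate oxidation, was at 3777 ± 1074 in MCD+HF mice and 36.8 ± 8.31 in NC mice (6.31, adjusted p = 5.9e-11), with Fgf21 at 2.24, Acot1 at 2.13 and Cyp4a14 at 1.83 on the log2 scale. Of 9 genes that activate, shorten or insert polyunsaturated fatty acids, 4 were higher and 3 lower (median -0.21). The ligase genes Acsl3 (1.36, adjusted p = 2.7e-04) and Acsl4 (0.95, adjusted p = 0.00209) and the acyltransferase gene Agpat3 (1.00, adjusted p = 9.8e-07) were higher. Scp2, whose product includes the peroxisomal thiolase of branched chains, was lower at -1.10 (adjusted p = 1.3e-07), or -0.29 after quantile normalization.

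With metformin, 2 genes of these lists were called, where 3.97% of all genes were. Hacd4 was lower at 66.2 ± 15.8 in MCD+HF+Met mice and 129.9 ± 14.0 in MCD+HF mice (log2 change -0.89, adjusted p = 0.00833, or 0.107 by the methods' t-test after adjustment). Cyb5r3 was higher at 1754 ± 85.1 in MCD+HF+Met mice and 1411 ± 64.5 in MCD+HF mice (0.31, adjusted p = 0.0338), a call that 12 of 21 alternatives lost, among them leaving out any MCD+HF replicate or replicate 1, 2 or 3 of MCD+HF+Met (changes of 0.28 to 0.33). Srebf1 averaged 619 ± 139.8 in MCD+HF+Met mice and 384 ± 100.2 in MCD+HF mice, a change of 0.69 that was not called (adjusted p = 0.0692), and without MCD+HF+Met replicate 3 it was 0.83 and called (adjusted p = 0.0376). Of the lists with 0 calls by limma, at an unadjusted p under 0.05 limma and the methods' t-test gave 0 and 0 of 5 other desaturases and elongases, 1 and 1 of 12 lipogenic genes, 2 and 0 of 9 PPARalpha genes, and 1 and 2 of 9 genes of activation, shortening and insertion. The share of all genes at an unadjusted p was not counted, so these counts have no background. In MCD+HF+Met against NC, limma called 44.2% of all genes (25.6% higher, 18.6% lower), the background for the counts that follow. It called 3 of 5 other desaturases and elongases, all higher, and 1 of 6 partners (Hacd4, higher). It called 1 higher and 2 lower of 4 electron suppliers, 1 higher and 5 lower of 12 lipogenic genes, 7 higher and 2 lower of 9 PPARalpha genes, and 4 higher and 3 lower of 9 genes of activation, shortening and insertion.

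**Figure D4:**
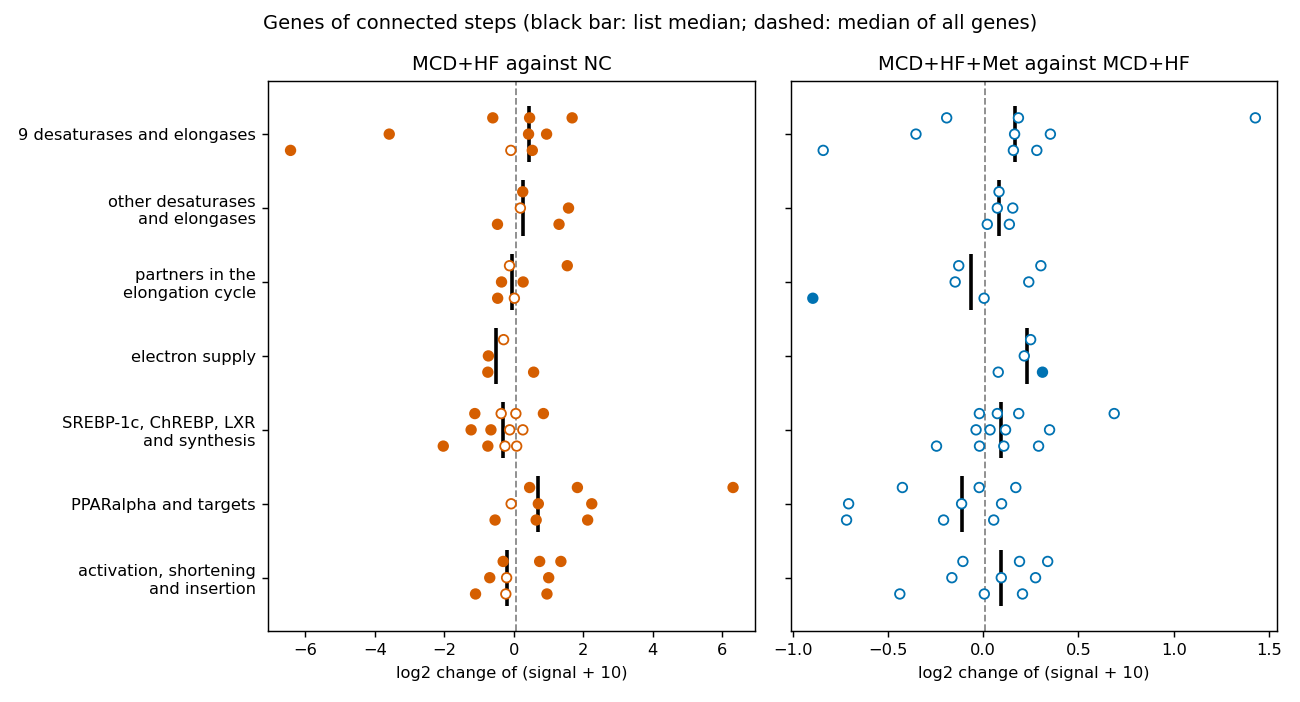
Log2 change of each gene of the 9 and of the 6 connected lists, for MCD+HF against NC (left) and MCD+HF+Met against MCD+HF (right); filled points have an adjusted p under 0.05, black bars are list medians and the dashed line is the median of all genes. The PPARalpha list has its median at 0.71 on the left, and Hacd4 and Cyb5r3 are the filled points on the right.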

How the data were processed

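Livers of 12 C57BL/6 mice (4 per group) were profiled by the authors on Affymetrix Mouse Genome arrays. The deposited values are linear signal intensities that the authors obtained with GCOS and scaled per array, so that the mean without 2% of probe sets in each tail is 100. Here 10 was added, log2 was taken, and 64 controls were dropped, and of 45101 probe sets the 22832 whose signal averaged 20 or more were tested. The 3 groups were fitted in 1 model with limma 3.58.1 in R 4.3.3 (lmFit, eBayes with trend), tested on simulated data, with Benjamini-Hochberg adjustment. Genes came from the platform annotation (34945 probe sets with 1 symbol, 932 with several, 9160 unnamed here), and symbols were updated through gene identifiers from RefSeq (GRCm38.p6). Each gene was represented by its brightest probe set, one ending in _x_at only if there was no other. The members and lists were chosen with earlier results of these data known. The text names all 9 members, up to 4 called genes of each list, largest change first, the 3 genes most correlated with each member, and marker genes only beside results. Srebf1 in the metformin comparison, Fasn, Ppara, Scd3 and Elovl4 fall outside that rule where mentioned and were named after their values were seen. Alternatives were other offsets, filters, normalization, variance models, probe sets, a replicate block, left-out arrays and the methods' t-test with a 1.5-fold difference. That t-test and fold were taken on log2(signal + 10). The change calls and signal log ratios of GCOS, which the paper also used, were left out, so its choices are not the paper's. Replicate numbers were taken from the labels and groups from the diets. Python 3.11.15 with matplotlib 3.10.9 made the figures.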

Additional observations from a re-analysis of the deposited data

Results flagged for a closer look

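Among 27 groups of 4 mice (9 members in 3 groups), 2 held a mouse far from the others, where a gap of this kind arises by chance in about 1 of 20 groups. Scd1 of MCD+HF+Met replicate 4 was 1323.9, against 352.6, 297.3 and 154.5 in the other treated mice, and its second probe set was high in the same mouse (154.9, against 29.2 to 36.6). In that mouse Elovl6 was 293.9 and Srebf1 576.2, while Fasn at 156.7 and Thrsp at 85.6 were the lowest of the MCD+HF+Met group. Elovl2 of NC replicate 3 was 3047.5, against 2546.5 to 2557.0 in the other NC mice.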

How the results depend on the processing

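With each array left out in turn, limma called 8 members in MCD+HF against NC every time (5 higher, 3 lower) and 7 in MCD+HF+Met against NC (5 higher, 2 lower). In MCD+HF+Met against MCD+HF it called 0 to 1, with 0 to 1 higher (Scd1, without MCD+HF+Met replicate 3) and 0 to 1 lower (Elovl3, without MCD+HF replicate 1). The methods' t-test with a 1.5-fold difference, run here without the change calls of GCOS, chose 5 members in MCD+HF against NC, 2 of them higher (Scd2 and Fads2). It chose 1 in MCD+HF+Met against MCD+HF, which was lower in MCD+HF+Met (1, Elovl3). Elovl6 in MCD+HF against NC ranged between -0.25 and 0.026 with an array left out, being above 0 without NC replicate 4 (0.0016) or MCD+HF replicate 4 (0.026). Other sign changes were Fads1 in MCD+HF against NC on its second probe set (-0.016), Elovl2 in MCD+HF+Met against NC (0.021) and Cyb5a in MCD+HF against NC (0.040), the last pair after quantile normalization, and the causes were not tested. The brightest probe set of an array reached 9467 to 11830 in MCD+HF mice and 19413 to 23473 in NC mice. Of 243 member results under the other settings, 241 kept their direction and side of the threshold, as did 320 of 324 with an array left out and 30 of 36 on other probe sets. With the replicate number as a block, limma called 8, 0 and 7 members in the diet, metformin and treated against NC comparisons, unchanged from the model without it, and among list genes with metformin it called Srebf1 (adjusted p = 0.0379) and not Cyb5r3 (adjusted p = 0.0519). Deviations of same-numbered mice from their group means correlated between -0.13 and 0.25 (median 0.0026), and those of differently numbered mice between -0.21 and 0.13 (median -0.0061). The highest value, 0.25, was that of replicate 4 of MCD+HF+Met with replicate 4 of MCD+HF. Whether the number stands for anything the mice shared was not tested. The probe sets used for the members had mean signals of 97.4 or more, and detection calls were not used here.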

Other observations

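On the MCD+HF diet the mice ranked in opposite order for the 2 transcripts that fell most. Scd1 was highest in MCD+HF replicate 1 and lowest in replicate 4 (228.7, 189.5, 104.1 and 75.7), and Elovl3 was lowest in replicate 1 and highest in replicate 4 (75.5, 115.0, 138.9 and 193.1). Elovl5 was also highest in replicates 3 and 4 of that group (5110.4 and 5405.4, against 4034.3 and 4034.5). The MCD+HF+Met mice did not show the opposite order in replicates 1 to 3. There Scd1 (352.6, 297.3 and 154.5) and Elovl3 (92.7, 74.8 and 53.9) fell together, and replicate 4 had 1323.9 and 46.6. Cell type markers also differed among the MCD+HF mice. The hepatocyte gene Alb was 7790.5, 8251.8, 8435.5 and 9264.4 and Cps1 5086.8, 5374.9, 6262.1 and 6663.7 in replicates 1 to 4. The macrophage gene Lyz2 was 2810.6, 2459.5, 1262.9 and 1489.8. Clec4f of the same macrophage list did not follow Lyz2, at 165.1, 101.7, 334.9 and 229.6. The part of these markers was not tested. With 4 mice and an order noticed after the values were seen, no test was made.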
